A study of Mus musculus with 10 samples.

Results

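Dopamine handling was followed through 9 genes: Th, Ddc and Gch1 for synthesis, Slc6a3 and Slc18a2 for transport, Drd2 as the receptor, and Maoa, Maob and Aldh1a1 for breakdown. They were chosen by name, as all probes of the arrays, controls aside, annotated with 1 of these symbols. The rule found 12 probes, with 1 probe for 6 of the genes and 2 each for Ddc, Gch1 and Slc18a2. All 9 genes passed the filter on dim probes and stand among 32171 genes tested.

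Every animal had received MPTP, a toxin used to damage dopamine neurons of the midbrain, and then a one-sided midbrain graft of lineage-negative bone marrow cells (HSPCs, for haematopoietic stem and progenitor cells) 3 days after the last injection. Cells were sorted 1 week after grafting into hybrids, which carry both the red and the yellow label (RFP+YFP+), and unfused cells, which carry the red label alone (RFP+). There were 5 groups of 2 replicates, with 2 mice pooled for each replicate, and no group without MPTP. GFAP-Cre hybrids came from GFAP-Cre recipients grafted with HSPCs that carried the R26Y reporter, whose YFP is switched on by Cre. R26Y hybrids came from R26Y recipients grafted with HSPCs that carried Cre and RFP. Pooled unfused cells were the red-only cells of R26Y and GFAP-Cre recipients together. FoxA2-Cre hybrids and FoxA2-Cre unfused cells came from FoxA2-Cre recipients grafted with R26Y HSPCs. In GFAP-Cre recipients Cre follows the promoter of an astrocyte filament gene, and in FoxA2-Cre recipients that of a ventral midbrain transcription factor. Where the recipient supplies Cre, the yellow label needs a partner cell that expresses it, so the red-only gate can also hold graft cells that fused with a Cre-negative recipient cell. Age, sex and strain of the animals are not given in the sources used here.

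Dopamine is made from tyrosine by tyrosine hydroxylase and aromatic amino acid decarboxylase, packed into vesicles, released, taken back up through the plasma membrane and finally oxidised. Some of these genes serve the midbrain neurons that MPTP injures, though not those neurons alone, and several of them act on the toxin or its product. Monoamine oxidase B, mainly in glia, turns MPTP into its active product, the dopamine transporter carries that product into the neuron, and the vesicular transporter can store it away from mitochondria.

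The first 3 groups shared slide 1 and both FoxA2-Cre groups shared slide 2, so the groups of every fitted contrast were set against each other within slides, with a spread shared over both slides, and recipient set and slide cannot be told apart. On slide 2 the hybrid arrays lay in row 1 and the unfused arrays in row 2, so row and cell type cannot be told apart there. Levels are log2 of the processed spot signal minus the array's 75th percentile, so a level of 0 is the array's bright end and lower signals are negative. The share of spots well above background was 81.4% and 82.4% on GFAP-Cre hybrid arrays, 84.1% and 64.3% on R26Y hybrid arrays, and 82.8% and 86.7% on pooled unfused arrays. On slide 2 the share was 34.6% and 19.8% on FoxA2-Cre hybrid arrays, against 49.2% and 34.8% on FoxA2-Cre unfused arrays. R26Y hybrid replicate 2 stood apart on slide 1: the rank correlation across genes between its group's arrays was 0.678, against 0.904 for GFAP-Cre hybrids and 0.951 for pooled unfused cells. The pairs of slide 2 reached 0.671 in FoxA2-Cre hybrids and 0.718 in FoxA2-Cre unfused cells.

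Fewer dopamine genes were detected on the dimmer arrays. On slide 1, 7 and 8 of the 9 genes were well above background on GFAP-Cre hybrid arrays, 8 and 5 on R26Y hybrid arrays, and 8 on each pooled unfused array. On slide 2 it was 3 on each FoxA2-Cre hybrid array, against 5 and 3 on FoxA2-Cre unfused arrays. Th and Drd2 passed on all 10 arrays, Ddc on 9, Aldh1a1 on 7, Slc6a3 and Maob on 6, Maoa on 5, Slc18a2 on 3 and Gch1 on 2. The sorted cells were labelled as graft-derived, and markers of dopaminergic neuron identity fixed as a list (12 genes) were set beside them. Of that list 7 genes were tested, while Lmx1a, En1, Foxa1, Kcnj6 and Ret were well above background on too few arrays. The filter had kept these 7 for being well above background on at least 2 arrays, so their detection on the brighter slide was largely fixed by it. On slide 1, where 64.3% to 86.7% of all spots were well above background, they were nearly all measured. It was 7 on each GFAP-Cre hybrid array, 7 and 6 on R26Y hybrid arrays and 7 on each pooled unfused array. On slide 2 between 2 and 4 of them passed on FoxA2-Cre hybrid arrays and between 3 and 5 on FoxA2-Cre unfused arrays. In such bulk samples, fewer cells of a type and less RNA per cell cannot be told apart.

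**Figure D1:**
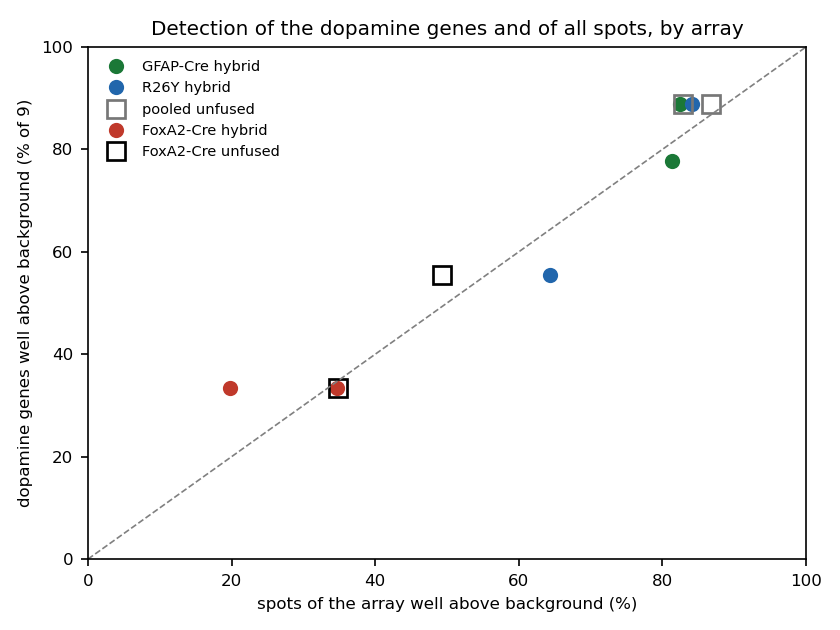
Each point is 1 array, with the share of its spots well above background (%, horizontal) and the share of the 9 dopamine genes well above background (%, vertical); filled circles are hybrids, open squares are unfused cells, and the dashed line marks equal shares. The FoxA2-Cre arrays lie lower left, at 19.8% to 49.2% of spots, and the points run along the dashed line.

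The probes behind the results are shown here as the array lists them, 5′ to 3′, on build mm9. For 2 probes the whole 60 bases are given, and for the others a stretch of 30 bases. Drd2 was measured at chr9:49215047-49215106 (plus strand), and Ddc by one probe at chr11:11776262-11776321 and a second at chr11:11714106-11714165, both on the minus strand, with starts 62156 bases apart. Both Slc18a2 probes lie on the plus strand, at chr19:59370106-59370165 and chr19:59370153-59370212, and share 13 bases, shown in capitals. Maoa was measured at chrX:16264785-16264844 (plus strand) and Maob 21642 bases away, at chrX:16286427-16286486 on the minus strand, and Th at chr7:150078703-150078762 on the minus strand. Capitals in the second Ddc probe and in the Maoa probe mark AATAAA, the letters of the usual polyadenylation signal. On the strand of the probe, 2 of the 12 probes hold it, against 10.1% of all 55681 probes.
Drd2, whole probe: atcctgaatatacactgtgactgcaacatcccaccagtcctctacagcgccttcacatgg
Ddc, first probe, whole: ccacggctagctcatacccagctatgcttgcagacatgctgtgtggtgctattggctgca
Ddc, second probe, bases 25 to 54: ggctaaatactaAATAAAcaacctatgtgc
Slc18a2, first probe, bases 31 to 60: gatcagcaaaggcatgcCTGTTACTGCTCT
Slc18a2, second probe, bases 1 to 30: CTGTTACTGCTCTccaaagaaaaaagaaaa
Maoa, bases 18 to 47: gttccacgtaaaAATAAAgttggccacaga
Maob, bases 1 to 30: cttgcatcttctagttagtctgcttccatt
Th, bases 1 to 30: ccaggatggtcctgcattcctcctgccctt
None of the 12 probes shared 20 bases with a probe of another gene. Double-stranded cDNA was labelled, so the signal of a gene and of its opposite strand cannot be told apart. Whether a probe lies in an exon or a UTR was not determined, since no annotation of that build was used here.

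No synthesis gene passed the test between hybrids and unfused cells. Th encodes tyrosine hydroxylase, the rate-limiting enzyme. Its level was -0.19 and -0.53 on GFAP-Cre hybrid arrays, -0.37 and -0.80 on R26Y hybrid arrays, and -0.13 and -0.27 on pooled unfused arrays. In slide 2 it was -0.76 and -2.01 in FoxA2-Cre hybrids, against -0.81 and -0.84 in FoxA2-Cre unfused cells. R26Y hybrids lay wholly below both pooled unfused arrays, and GFAP-Cre hybrids overlapped them, with replicate 1 between the unfused readings. From the lowest up, group means of slide 1 were -0.58 ± 0.31 in R26Y hybrids, -0.36 ± 0.24 in GFAP-Cre hybrids and -0.20 ± 0.10 in pooled unfused cells (SD, n = 2 each), and neighbours in that order differed by less than the larger of their SDs. FoxA2-Cre hybrid replicate 2 was the lowest array of all. Across recipient sets the fitted hybrid difference of Th was -0.40 ± 0.34 (SE; 95% interval -1.15 to 0.36; 6 hybrid and 4 unfused arrays, limma adjusted p = 0.999).

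Ddc encodes the decarboxylase that turns L-DOPA into dopamine and also makes serotonin. The Ddc level was -2.36 and -3.21 in GFAP-Cre hybrids, -2.44 and -3.38 in R26Y hybrids, and -2.97 and -2.77 in pooled unfused cells. Each hybrid pair bracketed the pooled unfused pair. On slide 2 Ddc was at -3.17 and -3.66 in FoxA2-Cre hybrids, against -3.69 and -3.64 in FoxA2-Cre unfused cells, and FoxA2-Cre hybrid replicate 2 was not well above background. Over both recipient sets Ddc differed by 0.12 ± 0.33 (SE; 95% interval -0.63 to 0.87; adjusted p = 0.999). The second Ddc probe read -4.20 and -3.01 in GFAP-Cre hybrids, -4.35 and -4.71 in R26Y hybrids, and -3.89 and -4.85 in pooled unfused cells. On slide 2 it was well above background on FoxA2-Cre unfused replicate 2 alone, at -4.14. Its difference over all hybrids was 0.14 ± 0.61 (SE), and between GFAP-Cre and R26Y hybrids it was 0.93 ± 0.98 (SE), where the first probe gave 0.13 ± 0.59 (SE) in the same fit over 49896 probes. Neither probe passed the test in any of the 5 group comparisons.

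Gch1 encodes GTP cyclohydrolase, which opens the path to tetrahydrobiopterin, the cofactor of tyrosine hydroxylase. It was near the limit of the arrays: of 10 arrays, R26Y hybrid replicate 1 (-5.32) and pooled unfused replicate 2 (-5.70) were well above background. Readings on the other 8 arrays lay between -8.80 and -5.55 and have no order among themselves. The second Gch1 probe, 1551 bases away at chr14:47775348-47775407 against chr14:47773797-47773856 (both on the minus strand), was well above background on pooled unfused replicate 2 alone, at -7.18. Pooled unfused replicate 2 was thus the array on which both probes passed. The fit over all hybrids, mostly of background readings, gave 0.22 ± 0.75 (SE; 95% interval -1.46 to 1.90; adjusted p = 0.999).

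Neither transporter gene passed the test, and both were measured mainly on slide 1. Slc6a3 encodes the dopamine transporter of the plasma membrane. Its level was -3.99 and -4.81 in GFAP-Cre hybrids, -4.07 and -6.25 in R26Y hybrids, and -4.20 and -4.05 in pooled unfused cells. R26Y hybrid replicate 2 was the low array there and was not well above background, while the remaining 5 arrays of slide 1 lay within -4.81 to -3.99. On slide 2 neither FoxA2-Cre hybrid array was well above background (-6.33 and -5.28), against -5.05 in FoxA2-Cre unfused replicate 1, which passed, and -6.43 in replicate 2, which did not. The difference from pooled unfused cells was -1.04 ± 0.87 (SE) for R26Y hybrids and 0.056 without their replicate 2. Over all hybrids it was -0.40 ± 0.54 (SE; 95% interval -1.61 to 0.80; adjusted p = 0.999).

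Slc18a2 encodes the vesicular monoamine transporter of neurons and of some blood cells, among them mast cells and platelets. The first of its probes was well above background on 1 of 2 arrays in each group of slide 1: at -6.22 in GFAP-Cre hybrid replicate 2, -6.05 in R26Y hybrid replicate 1, and -5.44 in pooled unfused replicate 1. No FoxA2-Cre array passed, and the second probe, whose first 13 bases repeat the end of the first, passed on 0 of 10 arrays and was not tested. The fit over all hybrids, mostly of background readings, gave -0.16 ± 0.73 (SE; 95% interval -1.78 to 1.47; adjusted p = 0.999). Markers of those blood cells were set beside it. For mast cells and basophils (4 of 5 genes tested) the summed scaled signal, in units of the array's 75th percentile, was 0.417 to 0.458 in GFAP-Cre hybrids, 0.216 to 0.396 in R26Y hybrids and 0.386 to 0.462 in pooled unfused cells. For platelets and megakaryocytes (4 of 4 tested) it was 0.300 to 0.323 in GFAP-Cre hybrids, 0.233 to 0.277 in R26Y hybrids and 0.261 to 0.292 in pooled unfused cells. On slide 2 the mast cell and basophil sum was 0.231 to 0.397 in FoxA2-Cre hybrids, against 0.244 to 3.65 in FoxA2-Cre unfused cells, and the platelet and megakaryocyte sum was 0.283 to 0.903 in hybrids, against 0.269 to 0.345 in unfused cells. Their part in the Slc18a2 readings was not tested.

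**Figure D2:**
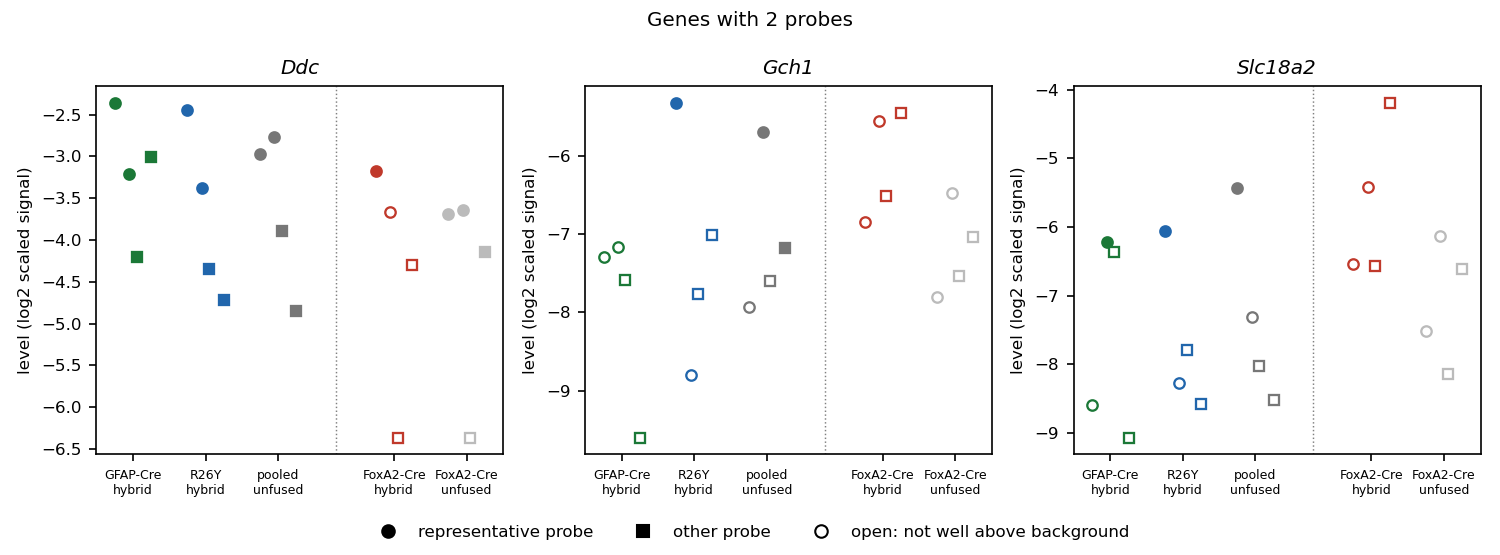
Level (log2 scaled signal, vertical) on each array by group (horizontal) for the 3 genes with 2 probes; circles are the probe with the higher mean, squares the other, filled where well above background, and the dotted line parts slide 1 from slide 2. Filled squares are frequent for Ddc on slide 1, single for Gch1 and missing for Slc18a2.

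Drd2 encodes the dopamine receptor that serves dopamine neurons as an autoreceptor. It was well above background on every array. The Drd2 level was -2.04 and -2.03 in GFAP-Cre hybrids, -0.64 and -2.14 in R26Y hybrids, and -1.56 and -1.50 in pooled unfused cells. GFAP-Cre hybrids lay wholly below pooled unfused cells, by 0.51 on average, and R26Y hybrids lay on both sides of them. On slide 2 Drd2 was at -1.55 and -2.56 in FoxA2-Cre hybrids, against -2.23 and -2.80 in FoxA2-Cre unfused cells, with overlap. The spread within groups was uneven, with an SD of 0.0054 in GFAP-Cre hybrids, 1.05 in R26Y hybrids and 0.0443 in pooled unfused cells (n = 2 each). Means of slide 1 were -2.04 in GFAP-Cre hybrids, the lowest, -1.39 in R26Y hybrids, the highest, and -1.53 in pooled unfused cells, between them. R26Y hybrids and pooled unfused cells differed by less than the SD of R26Y hybrids. GFAP-Cre hybrids and pooled unfused cells differed by -0.51 ± 0.66 (SE, from the spread shared by all groups; 95% interval -2.03 to 1.02; adjusted p = 0.99996). Over all hybrids the difference was 0.09 ± 0.42 (SE; 95% interval -0.84 to 1.03; adjusted p = 0.999).

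Breakdown genes held the one large value of the 9. Maoa encodes monoamine oxidase A, which oxidises serotonin, noradrenaline and dopamine. Its level was -5.78 and -6.36 in GFAP-Cre hybrids, which passed on both arrays, -7.75 and -6.87 in R26Y hybrids, which passed on neither, and -6.05 and -6.92 in pooled unfused cells, which passed on both. The mean of GFAP-Cre hybrids thus stood at least 1.74-fold above that of R26Y hybrids (measured means -6.07 and -7.31). The mean of R26Y hybrids stood at least 1.31-fold below that of pooled unfused cells (-7.31 and -6.49). Arrays of the latter comparison overlapped: R26Y hybrid replicate 2 read -6.87 and pooled unfused replicate 2 read -6.92. Such a fold is a lower bound on the difference of the means with regard to dim readings alone, and leaves out the spread between arrays. Where neither array of a group is well above background, a limit stands in for each reading. Per array, that limit is the higher of the gene's own reading and the lowest reading that passes. The fitted differences were 1.24 ± 1.66 and -0.83 ± 1.66 (SE; adjusted p = 0.9998 and 0.9996), and neither passed. Both folds hold for this scaling of the signal alone. The difference of R26Y hybrids from pooled unfused cells changed sign under another background correction (0.13) and in a log2 matrix deposited by the authors (0.059).

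On slide 2 Maoa read -4.48 and 1.63 in FoxA2-Cre hybrids, against -6.51 and -6.96 in FoxA2-Cre unfused cells. FoxA2-Cre hybrid replicate 2 was the array well above background, and the only one of the 10 on which Maoa lay above the array's 75th percentile. The fitted difference was 5.31 ± 1.66 (SE; 95% interval 1.46 to 9.16; unadjusted p = 0.0132, adjusted p = 0.426), and it did not pass. It rests on that array: without it the difference was 2.25, with FoxA2-Cre hybrids not well above background, and without FoxA2-Cre hybrid replicate 1 it was 8.36 with the adjusted p at 0.0106, where the lone hybrid array is assumed to vary as the other groups do. The hybrid difference in FoxA2-Cre recipients exceeded that of the other recipients by 5.51 ± 2.20 (SE; 95% interval 0.42 to 10.61; unadjusted p = 0.0372, adjusted p = 0.835), which did not pass either. On the same slide the microglia markers (10 of 10 tested) summed to 74.3 and 157.6 in FoxA2-Cre hybrids, against 14.1 and 17.6 in FoxA2-Cre unfused cells, on 4 to 8 genes well above background in hybrids and 6 to 7 in unfused cells, and 7 of the 10 fitted differences lay above 0 (median 0.80). Neutrophil markers (8 of 8 tested) summed to 0.344 and 0.398 in FoxA2-Cre hybrids, against 19.4 and 22.7 in FoxA2-Cre unfused cells, and 7 of the 8 differences lay below 0 (median -3.30). Astrocyte markers (7 of 8 tested) summed to 0.493 and 1.40 in hybrids, against 2.99 and 3.097 in unfused cells, while 5 of the 7 differences lay above 0 (median 0.40). Of these lists, 2 neutrophil markers passed the test, lower in hybrids, and 0 microglia and 0 astrocyte markers did. With the spread taken from this slide alone, 0 of all genes passed. Over all genes the median difference in this comparison was 0.36. The astrocyte median was thus close to that of all genes, and the microglia median of 0.80 lay above it. Medians of platelets and megakaryocytes (0.89), erythroid cells (0.87) and dopaminergic neuron identity (0.70) also lay above it. Those of neurons (0.36), oligodendrocytes (0.31) and lymphoid cells (0.31) did not, so a higher median was not particular to microglia markers. The part of these cell types in the Maoa reading was not tested.

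Maob encodes monoamine oxidase B, the enzyme that activates MPTP. It was measured on slide 1 alone, where every array passed. Maob was at -4.74 and -4.58 in GFAP-Cre hybrids, -4.42 and -3.23 in R26Y hybrids, and -5.07 and -4.14 in pooled unfused cells. R26Y hybrid replicate 2, the array on which Slc6a3 and Aldh1a1 were lowest within slide 1, had the highest Maob level. GFAP-Cre hybrids lay inside the range of pooled unfused cells and wholly below R26Y hybrids. Means were -4.66 ± 0.11 in GFAP-Cre hybrids, the lowest, -3.83 ± 0.84 in R26Y hybrids, the highest, and -4.60 ± 0.66 in pooled unfused cells, between them (SD, n = 2 each), and neighbours in that order differed by less than the larger SD. GFAP-Cre hybrids differed from R26Y hybrids by -0.83 ± 0.66 (SE; 95% interval -2.36 to 0.70; adjusted p = 0.9998), and by -0.24 without R26Y hybrid replicate 2. Both FoxA2-Cre hybrid arrays (-6.56 and -5.47) and both FoxA2-Cre unfused arrays (-7.48 and -7.12) were not well above background, so no fold is given. Where Maob was measured, the difference from pooled unfused cells was -0.05 ± 0.66 in GFAP-Cre hybrids and 0.78 ± 0.66 in R26Y hybrids (SE). The fit over all hybrids, which also takes in the background readings of slide 2, gave 0.76 ± 0.45 (SE; adjusted p = 0.999) and is no measured difference for that slide.

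Aldh1a1 encodes an aldehyde dehydrogenase of a subset of midbrain dopamine neurons, which clears the aldehyde formed from dopamine and makes retinoic acid. Its probe lies at chr19:20717764-20717823 on the plus strand. The Aldh1a1 level was -2.19 and -4.04 in GFAP-Cre hybrids, -2.58 and -4.88 in R26Y hybrids, and -2.70 and -2.68 in pooled unfused cells. In both hybrid groups 1 array matched or exceeded the unfused pair and the other lay well below it. On slide 2 Aldh1a1 was at -5.08 and -5.05 in FoxA2-Cre hybrids, neither well above background, against -5.27 in FoxA2-Cre unfused replicate 1, which passed, and -5.29 in replicate 2. R26Y hybrids differed from pooled unfused cells by -1.04 ± 0.87 (SE), and by 0.11 without their replicate 2. Over all hybrids the difference was -0.33 ± 0.55 (SE; 95% interval -1.55 to 0.90; adjusted p = 0.999).

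**Figure D3:**
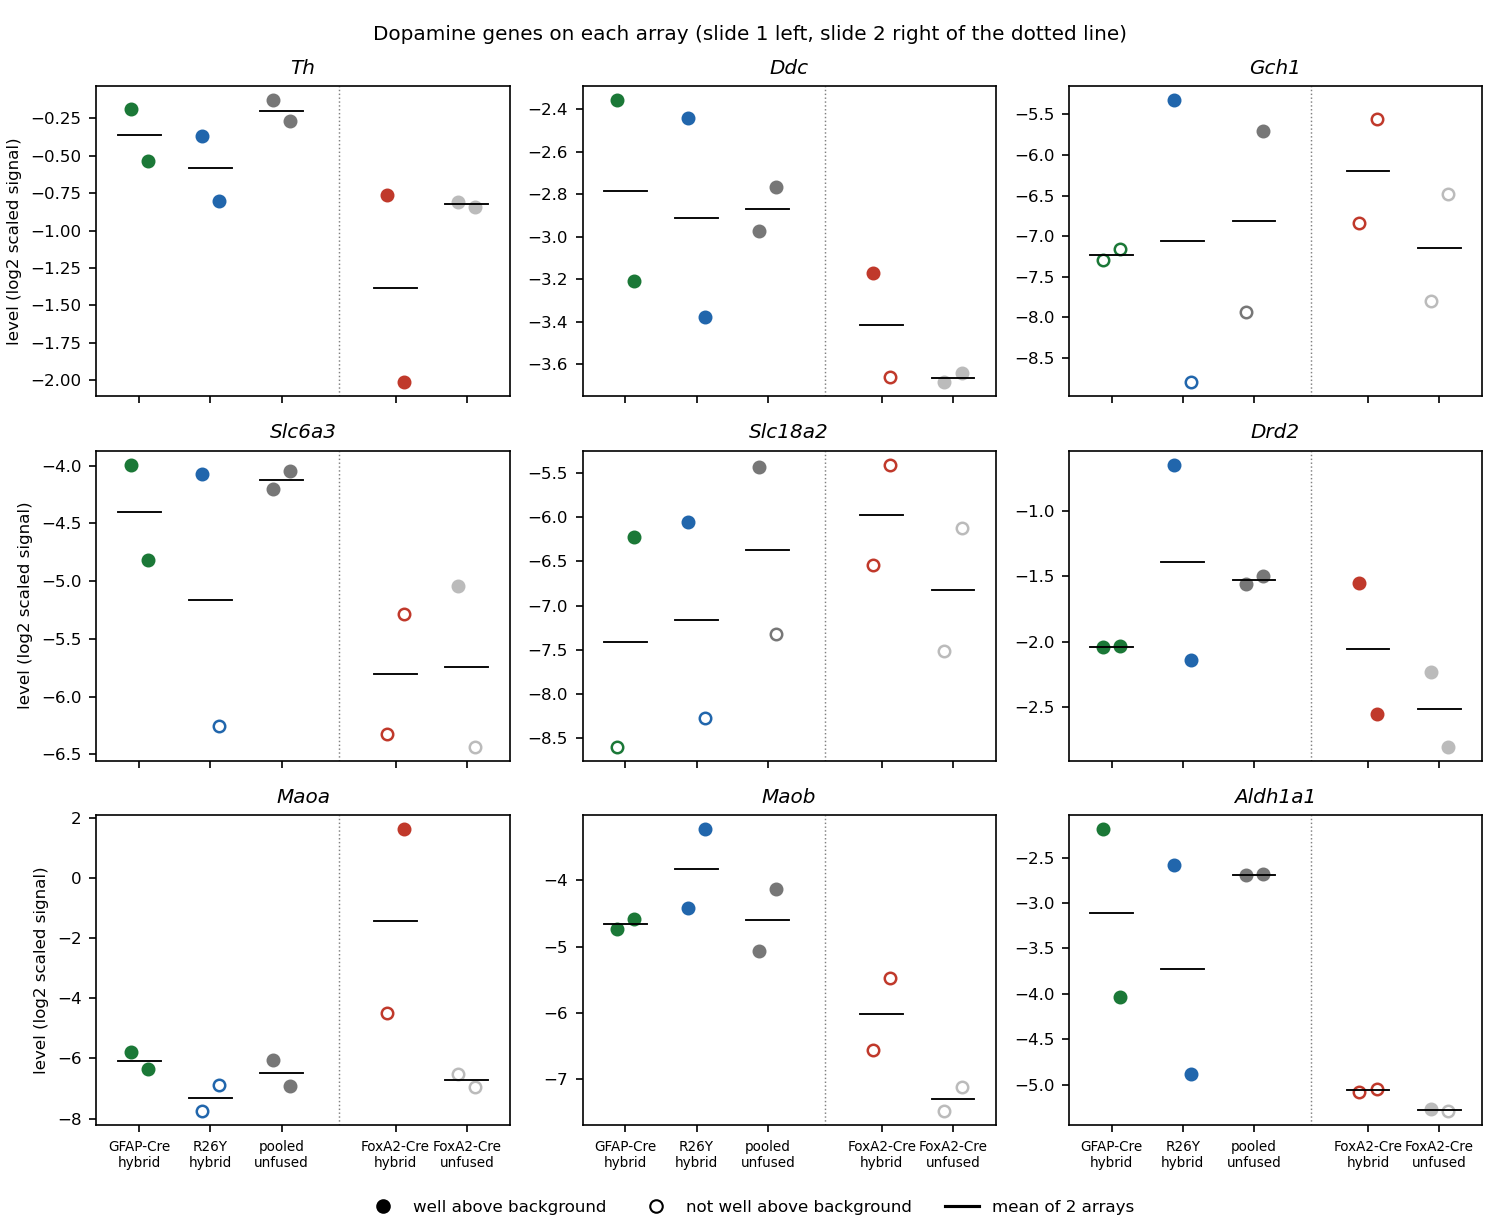
Level (log2 scaled signal, vertical, a separate scale for each gene) of the 9 dopamine genes on each of the 10 arrays, by group (horizontal); points are arrays, filled where well above background, bars are means of 2 arrays, and the dotted line parts slide 1 from slide 2. Maoa on FoxA2-Cre hybrid replicate 2, at 1.63, stands apart from every other Maoa point, and FoxA2-Cre points are mostly open.

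Set together, 0 of the 9 genes passed the threshold in any of the 6 comparisons, with limma and Benjamini-Hochberg adjustment over all genes. For all hybrids against unfused cells the background was 0% of genes, and at an unadjusted p under 0.05 it was 0 of 9 against 3.12% of genes. The 9 fitted differences ran from -0.40 to 2.16 with a median of 0.09, beside a median of 0.03 over all genes. Arrays of hybrids and unfused cells were separate within both slides for 0 of 9 genes in either direction, against 0.469% of genes lower and 1.08% higher in hybrids.

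For GFAP-Cre hybrids against pooled unfused cells, 0% of all genes passed, and the 9 differences had a median of -0.28, beside 0.03 over all genes. Drd2 was the one dopamine gene whose arrays did not overlap, lower in GFAP-Cre hybrids, where 14.4% of all genes were so. For R26Y hybrids against the same pooled unfused arrays, 0% of all genes passed, and the median was -0.39, beside -0.26 over all genes. Th was the one whose arrays did not overlap, lower in R26Y hybrids, against 19.6% of all genes. No dopamine gene had an unadjusted p under 0.05 in either comparison, against 1.62% of all genes for GFAP-Cre hybrids and 1.39% for R26Y hybrids. No dopamine gene lay wholly higher in either, against 19.9% of all genes for GFAP-Cre hybrids and 10.6% for R26Y hybrids. The comparisons share the pooled unfused arrays, so their values are no independent pair.

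For FoxA2-Cre hybrids against FoxA2-Cre unfused cells, 0 of 9 passed against 0.532% of all genes. That share stands for 171 genes, and 0 passed when the spread came from this slide alone, against 61 to 559 with 1 array left out. Of the 9, 1 gene, Maoa, had an unadjusted p under 0.05, against 8.64%. The median of the 9 was 0.47, beside 0.36 over all genes. Maoa, Maob and Aldh1a1 had hybrid readings above both unfused readings, as had 26.5% of all genes, and 0 of 9 lay wholly below, against 10.6%. Of those 3 genes, Maob had no array well above background, and Aldh1a1 had an unfused one alone. Maoa was the one with a hybrid array that passed. For GFAP-Cre hybrids against R26Y hybrids, 0% of all genes passed, and at an unadjusted p under 0.05 it was 0 of 9 against 2.75%. Maoa lay wholly higher, as did 20.2% of genes, and Maob wholly lower, as did 7.49%. For the difference between recipient sets, 0 of 9 passed against 0.0964% of all genes, and 1 of 9, again Maoa, had an unadjusted p under 0.05, against 5.62%.

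**Figure D4:**
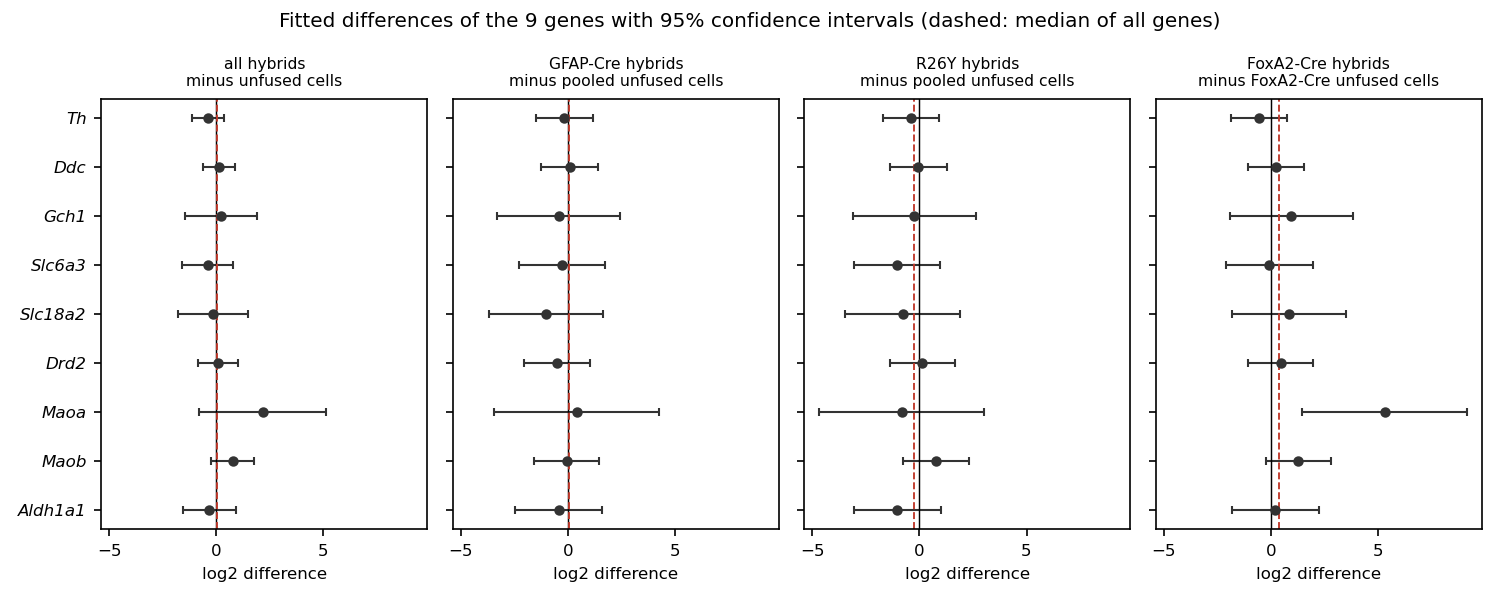
Fitted log2 differences (horizontal, points) of the 9 dopamine genes (vertical) with 95% confidence intervals in 4 comparisons; the solid line is 0 and the dashed line the median of all genes. Every interval spans 0 except that of Maoa for FoxA2-Cre hybrids, 1.46 to 9.16, whose adjusted p was 0.426.

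Other genes of amine metabolism did not pass the test either. In 5 lists covering tetrahydrobiopterin supply (8 of 8 genes tested), enzymes of other biogenic amines (5 of 5), amine transporters (7 of 7), dopamine receptors and signalling (9 of 9) and amine and aldehyde breakdown (10 of 10), 0 genes passed in either direction in any of the 6 comparisons. Up to 3 genes with the smallest p over all hybrids are named for each list, all with an adjusted p of 0.999. For tetrahydrobiopterin they were Pcbd2, which recycles the cofactor (1.35 ± 0.60 SE, unadjusted p = 0.0487), and Qdpr, also of recycling (-0.35 ± 0.40). Pcbd2 was at -5.77 and -5.26 in GFAP-Cre hybrids, -5.56 and -3.32 in R26Y hybrids, and -7.25 and -5.67 in pooled unfused cells, of which replicate 1 was not well above background. Neither Pcbd2 nor Qdpr was well above background on any FoxA2-Cre array.

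Among enzymes of other amines, Tph1, which starts serotonin synthesis outside the brain, differed by 0.52 ± 0.45, Dbh, which makes noradrenaline, by 0.42 ± 0.44, and Pnmt, which makes adrenaline, by 0.25 ± 0.37 (SE). Neither Tph1 nor Dbh was well above background on any FoxA2-Cre array. For transporters, the noradrenaline transporter gene Slc6a2 differed by 1.18 ± 0.72 and the vesicular transporter gene Slc18a1 by 1.14 ± 0.92 (SE). Among the slide 2 arrays, both genes were well above background on FoxA2-Cre hybrid replicate 1 alone. Against pooled unfused cells, Slc18a1 differed by -1.04 in R26Y hybrids and -0.07 in GFAP-Cre hybrids. Its value above 0 thus came from slide 2, mostly from background readings. Slc6a2 lay above pooled unfused cells in R26Y hybrids and below them in GFAP-Cre hybrids, by group means. Of the receptor and signalling genes, Drd4 differed by -0.66 ± 0.45, Drd1 by -0.91 ± 0.68 and Rgs9, a brake on G protein signalling, by -0.39 ± 0.30 (SE). In the breakdown list the retinaldehyde dehydrogenase genes Aldh1a2 and Aldh1a3 differed by 0.90 ± 0.46 and 0.47 ± 0.41, and the sulfotransferase gene Sult1a1 by 0.47 ± 0.32 (SE). On slide 2 Aldh1a2 was well above background on FoxA2-Cre hybrid replicate 1 alone, and Aldh1a3 on no array. Each of these 13 genes, named for a small p, thus had an adjusted p above the threshold over all hybrids. Pcbd2 was the one with an unadjusted p under 0.05 in that limma fit, where 3.12% of all genes had one. For FoxA2-Cre hybrids against FoxA2-Cre unfused cells, 1 gene of the transporter list and 2 of the breakdown list had one, against 8.64% of all genes.

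Likeness of pattern was described for the 3 dopamine genes well above background on at least 9 arrays; for the other 6, too many readings were at background to rank. It was taken as Pearson's r over the 10 arrays, each slide centred on its mean, among 20074 genes with symbols, and all genes share arrays and brightness. Th was most like Proc (r = 0.98) and Sbf1 (0.97), Ddc like Pld6 and Cphx1 (0.95 each), and Drd2 like C2cd4c (0.93) and Ptpro (0.92). The values for Th include FoxA2-Cre hybrid replicate 2, its lowest array. None of these 6 genes was a dopamine gene or a member of the 5 lists. Above r = 0.9 there were 45 genes for Th, 17 for Ddc and 4 for Drd2.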

How the data were processed

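Per the labels' protocols, whole-transcriptome amplification gave cDNA from the RNA of sorted cells, of which 500 ng received the Cy3 label for 1-colour Agilent mouse arrays. The deposited spot tables come from Agilent Feature Extraction 10.7.3.1, per the file headers, and their processed signal is an intensity: each array was background-subtracted and detrended on its own, and arrays were not scaled to each other. The spot marks used (well above background, non-uniform) are 0 or 1, per the file headers. A log2 matrix deposited by the authors, whose tool is not given in the sources used here, served as an alternative. Columns of unmatched samples numbered 0. No spot other than controls was saturated (0 of 59305).

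Here, log2 of the processed signal minus the array's 75th percentile was used, taken over the 9510 spots well above background on all 10 arrays. Non-uniform spots were left out, probes well above background on at least 2 arrays were kept, and the probe with the highest mean stood for its gene. Symbols were looked up through RefSeq accessions, which matched 27428 of 55681 probes and changed the symbol of 2788. Groups follow the labels. Tests used limma 3.58.1 in R 4.3.3, two-sided, with Benjamini-Hochberg adjustment over 32171 genes and calls at 0.05. The fit of all hybrids against unfused cells had the recipient set as covariate (7 residual degrees of freedom), and single groups were tested from 5 group means with a shared spread (5 degrees). The script was tested on simulated data. The number of arrays limits the precision.

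The 9 genes, the lists and the tests were chosen with earlier results of these data known. Named genes are the 9, and for each pathway list the 3 with the smallest p over all hybrids where none passed, some of which are not reported here. Replicate numbers did not pair the arrays: deviations of same-numbered arrays correlated between -0.0711 and 0.073.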

Additional observations from a re-analysis of the deposited data

Results flagged for a closer look

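FoxA2-Cre hybrid replicate 2 gave both readings that lay far from those of the other 5 hybrid arrays, of which 4 are on slide 1 and 1 on slide 2, so slide, recipient set and brightness enter this contrast and cannot be told apart in it. Maoa read 1.63 there, on the log2 scale, far above the others, which lay between -7.75 and -4.48, with both R26Y hybrid arrays and FoxA2-Cre hybrid replicate 1 not well above background. Th read -2.01 there, far below the others, which lay between -0.80 and -0.19. This array had 19.8% of its spots well above background, the fewest of the 10. Chance flags about 1 in 20 groups of this kind, and the levels of 9 genes were examined in hybrids and in unfused cells.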

How the results depend on the processing

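None of the 9 dopamine genes came to pass the threshold in the 403 values under settings other than leaving out an array, and 29 of these values changed sign. With normexp background correction (offset 50) these were, over all hybrids, Slc6a3 (0.14), Slc18a2 (0.30), Aldh1a1 (0.047) and, of the lists, Qdpr (0.20) and Drd4 (0.053). For R26Y hybrids they were Gch1 (0.27), Slc18a2 (0.11) and Maoa (0.13), for GFAP-Cre hybrids Maob (0.14), for FoxA2-Cre hybrids Slc6a3 (0.71), and for GFAP-Cre against R26Y hybrids Th (-0.085) and Slc6a3 (-0.0068). With quantile normalisation they were Gch1 over all hybrids (-0.31) and in FoxA2-Cre hybrids (-0.32), and Ddc in R26Y hybrids (0.30) and in GFAP-Cre against R26Y hybrids (-0.22). With the authors' matrix they were Gch1 over all hybrids (-0.011), Ddc (0.093), Gch1 (0.077) and Maoa (0.059) in R26Y hybrids, and Maob in GFAP-Cre hybrids (0.072). In FoxA2-Cre hybrids Slc6a3 (0.011), Slc18a2 (-0.18) and Maob (-0.094) turned, and between GFAP-Cre and R26Y hybrids Th (-0.054) and Ddc (-0.069). With the percentile over all probes Ddc (0.29) and Gch1 (0.091) turned in R26Y hybrids, and Th (-0.14) and Ddc (-0.24) between GFAP-Cre and R26Y hybrids. Without the recipient term Aldh1a1 (0.016) turned over all hybrids, and when the probes of a gene were averaged Qdpr (0.21) and Rgs9 (0.036). Scaling also moved the median over all genes: in R26Y hybrids it was -0.26, against 0.077 with the percentile over all probes, and over all hybrids 0.03, against 0.29 with normexp. The stricter filter (5 arrays) tested 7 of 9 genes. Counts of all genes passing in FoxA2-Cre hybrids were 171, against 111 with normexp, 106 with a replicate block and 0 with its slide alone. For the difference between recipient sets they were 31, against 9 with quantile normalisation, 55 with the authors' matrix and 0 with a replicate block. The replicate block changed no call of a dopamine gene. The cause of these changes was not tested.

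Leaving out 1 array at a time changed the sign of 42 of 244 values. Maoa passed without FoxA2-Cre hybrid replicate 1, in FoxA2-Cre hybrids (2.25 to 8.36 over the arrays left out) and in the difference between recipient sets (2.46 to 8.57), so that 0 to 1 dopamine genes passed there. Over all hybrids the ranges were -0.12 to 0.88 for Gch1, -0.13 to 0.20 for Drd2, -0.55 to 0.48 for Slc18a2 and -0.022 to 0.46 for Pnmt. In R26Y hybrids they were -0.61 to 0.89 for Drd2, -0.51 to 0.43 for Ddc, -1.98 to 1.495 for Gch1, -2.13 to 0.056 for Slc6a3, -1.89 to 0.32 for Slc18a2 and -2.19 to 0.11 for Aldh1a1. In GFAP-Cre hybrids they were -0.34 to 0.51 for Ddc, -1.53 to 0.71 for Gch1, -0.024 to 0.85 for Maoa, -0.52 to 0.41 for Maob, -2.21 to 0.16 for Slc18a2, -0.34 to 0.011 for Th, -0.69 to 0.13 for Slc6a3 and -1.35 to 0.50 for Aldh1a1. In FoxA2-Cre hybrids they were -0.76 to 0.63 for Slc6a3, -0.037 to 0.97 for Drd2 and -1.19 to 0.066 for Th. Between GFAP-Cre and R26Y hybrids they were -1.91 to 1.57 for Gch1, -1.43 to 0.94 for Slc18a2, -1.39 to 0.10 for Drd2, -0.34 to 0.60 for Ddc, -0.33 to 1.85 for Slc6a3 and -0.53 to 1.77 for Aldh1a1. Counts of all genes passing ran from 0 to 2315 in R26Y hybrids and from 0 to 2182 between GFAP-Cre and R26Y hybrids, both highest without R26Y hybrid replicate 1. They ran from 61 to 559 in FoxA2-Cre hybrids and from 0 to 156 for the difference between recipient sets, both highest without FoxA2-Cre unfused replicate 2. Where a group is left with 1 array, that array is assumed to vary like the other groups. Dim signal limits Gch1, Slc18a2 and Maoa on both slides, and Slc6a3, Maob and Aldh1a1 on slide 2.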
